A study of Homo sapiens with 6 samples.

Results

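The G2/M and mitotic genes are a list of 42 genes whose products carry a cell from the end of DNA replication through chromosome segregation and cell division. They were taken by name from a list of mitotic cyclins, kinases, kinesins, checkpoint and kinetochore genes, with no measured value in the rule, and all 42 were found among the 61731 genes and loci of the expression table. The members and the lists compared below were, however, chosen with earlier results of these data known. The study knocked down CHRM3, the gene of the M3 muscarinic acetylcholine receptor, by lentivirus in U87-MG, an established human glioblastoma cell line, and compared the transcriptome of these cells (KD, n = 3 libraries) with that of negative control cells (NC, n = 3 libraries), to ask which genes respond to the receptor. Which knockdown sequence or sequences the KD cells carried is not given in the sources used here. The numbers of the KD libraries were taken as replicates but could also stand for different knockdown sequences, in which case the SD of KD holds differences between sequences, and the sources do not state that replicates were grown separately, so p-values measure only the spread between these libraries. Expression was given as TPM, a share of each library's transcripts that is corrected for transcript length, so levels can be compared between genes, but TPM keeps no read depth and the depth of the libraries is unknown.

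Compared with NC, 37 of the 42 genes were significantly lower in KD and 0 were significantly higher, by limma on log2(TPM + 1) with a Benjamini-Hochberg adjusted p under 0.05, beside 24.0% lower and 12.1% higher of all genes tested. The falls were moderate, as the median gene kept 79.2% of its NC level, and the median log2 fold change was -0.33, beside -0.06 over all 13722 genes tested. NUSAP1, which bundles spindle microtubules, and AURKA, the Aurora A kinase of the centrosome, fell most, to 61.8% and 68.5% of NC. The other 5 genes, CDC25B, KIF18A, CENPE, NUF2 and HMMR, did not pass the test. In bulk RNA, fewer cells in G2 and mitosis and less of these transcripts in each cell cannot be told apart.

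The genes of this list share a cycle. In G2, cyclin A2 and the B cyclins bind the kinase CDK1, and the CDC25 phosphatases remove the inhibitory phosphates from it. Active CDK1, with the polo-like and Aurora kinases, drives chromosome condensation and assembly of the spindle, kinetochores attach chromosomes to microtubules, and the checkpoint proteins hold the anaphase promoting complex until each chromosome is attached. The complex, with its coactivator CDC20, then marks securin and cyclin B for destruction. Transcripts of these genes are made late in the cell cycle. The MuvB complex, joined by B-MYB and FOXM1, switches them on, and the DREAM complex, which holds the same MuvB core, keeps them off in resting and G1 cells. A short promoter element, the cell cycle genes homology region (CHR), is bound by MuvB, and it often lies near CCAAT boxes, which are bound by the factor NF-Y.

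Promoters of 5 of the genes are shown as examples of these elements, which many members of the list have in common. Whether the elements had a part in the changes was not tested. They are the 150 bases upstream of the first listed RefSeq start of each gene on build GRCh38.p14. Each is read 5′ to 3′ on the strand of the gene, and none overlaps an exon of GENCODE 29. Capitals mark a CHR (TTTGAA or TTTAAA) or a CCAAT box. On the opposite strand TTTGAA reads TTCAAA, and a CCAAT box reads ATTGG. CKS2 lies on the plus strand at chr9:89311045-89311194, CDK1 on the plus strand at chr10:60778181-60778330, CENPF on the plus strand at chr1:214603045-214603194, KIF11 on the plus strand at chr10:92592980-92593129, and MKI67 on the minus strand at chr10:128126424-128126573.
CKS2: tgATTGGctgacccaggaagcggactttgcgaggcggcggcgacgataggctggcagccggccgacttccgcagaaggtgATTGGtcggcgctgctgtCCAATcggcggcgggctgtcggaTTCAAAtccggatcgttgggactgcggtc
CDK1: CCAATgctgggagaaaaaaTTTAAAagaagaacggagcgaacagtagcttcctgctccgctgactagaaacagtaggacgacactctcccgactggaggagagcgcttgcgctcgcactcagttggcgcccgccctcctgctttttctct
CENPF: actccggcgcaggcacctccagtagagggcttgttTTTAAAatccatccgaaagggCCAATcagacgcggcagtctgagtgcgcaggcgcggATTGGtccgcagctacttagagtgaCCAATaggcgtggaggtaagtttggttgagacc
KIF11: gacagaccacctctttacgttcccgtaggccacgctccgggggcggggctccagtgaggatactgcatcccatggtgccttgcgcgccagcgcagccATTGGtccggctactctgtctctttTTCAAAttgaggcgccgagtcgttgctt
MKI67: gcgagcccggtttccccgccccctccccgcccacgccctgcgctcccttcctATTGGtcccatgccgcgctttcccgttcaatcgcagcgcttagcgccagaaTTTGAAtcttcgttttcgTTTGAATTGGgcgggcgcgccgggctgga
In CKS2 the CHR begins 29 bases before the start, with CCAAT boxes beginning at 52, 70 and 148 bases. KIF11 has the same order in a shorter form, with a CHR at 28 bases and a CCAAT box at 53. MKI67 has CHRs at 47 and 29 bases, the latter sharing its last base with a CCAAT box at 24, and a further CCAAT box at 98. The arrangement differs in CENPF, where the CHR at 115 bases lies upstream of CCAAT boxes at 94, 58 and 33. In the CDK1 promoter printed, a CCAAT box at 150 bases and a CHR at 131 are the only matches shown. CDK1 has another listed promoter, not printed, with CHRs at 69 and 13 bases and CCAAT boxes at 78 and 46 bases upstream. The log2 fold changes of these 5 genes lay between -0.41 (CKS2) and -0.23 (KIF11).

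CHRM3 itself was close to absent in both groups. Its level was 0.02, 0.09 and 0.13 TPM in NC1, NC2 and NC3 and 0.13, 0.01 and 0.02 TPM in KD1, KD2 and KD3, which overlapped (p = 0.80 by an exact permutation test, two-sided, which cannot give less than 0.10 with 3 against 3). The knockdown can therefore not be checked from these libraries, and KD below means the libraries so labelled. From separate measurements the paper reports that CHRM3 was knocked down efficiently in U87-MG cells. Per library, 22597 to 23311 genes were above 0 TPM and 13518 to 13664 reached 1 TPM, and log2 profiles correlated at 0.976 to 0.979 within groups and at 0.964 to 0.969 between them (Pearson r across genes, which are not independent replicates). Of the markers of the glioma line, VIM (6528 to 7451 TPM), FN1 (650.0 to 995 TPM), CD44 (459 to 619.7 TPM) and CAV1 (565 to 603 TPM) were high and NES was low (1.98 to 4.01 TPM). VIM and NES were higher in KD (log2 fold changes 0.17 and 0.50) and CD44 and FN1 lower (-0.33 and -0.57), all past the test, and their part in the results below was not tested. The glial genes GFAP (0.87 to 1.46 TPM), OLIG2 (0.24 to 0.56 TPM) and SOX2 (0 to 0.09 TPM) were at or near 0. Each of the 5 leukocyte and 3 endothelial markers stayed below 1 TPM in every library, with TYROBP and CD3E listed at 0. Of the 3 neuronal markers, SNAP25 was at 9.10 to 10.7 TPM in NC and 13.5 to 14.2 TPM in KD (log2 fold change 0.47, adjusted p = 0.00255 by limma), and SYT1 and RBFOX3 were below 1 TPM. Of the epithelial markers, EPCAM lay between 0.63 and 1.44 TPM which was not called different (adjusted p = 0.16 by limma), and CDH1 between 0 and 0.11 TPM.

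The share of the list that fell, 88.1%, thus stands beside a background of falls that was itself large. Levels matter for this comparison, because the 42 genes were well expressed, with means over the 6 libraries from 7.79 TPM (CENPE) to 515 TPM (CKS2). Among the 8195 genes tested in that range of levels, 31.5% were significantly lower and 14.2% significantly higher, and the median log2 fold change was -0.07. At an unadjusted p under 0.05, limma called 38 of the 42 genes lower and 0 higher. In 38 of the 42 genes every KD library lay below every NC library, a pattern seen in 32.8% of all genes tested. The largest fall of the list was a log2 fold change of -0.69 (NUSAP1). By a log2 fold change of -1 or less, 0 of the 42 genes were called, beside 1.2% of all genes. By -0.5 or less 2 were called (NUSAP1 and AURKA), beside 5%. Both counts are near the shares over all genes, so they do not set the list apart.

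**Figure D1:**
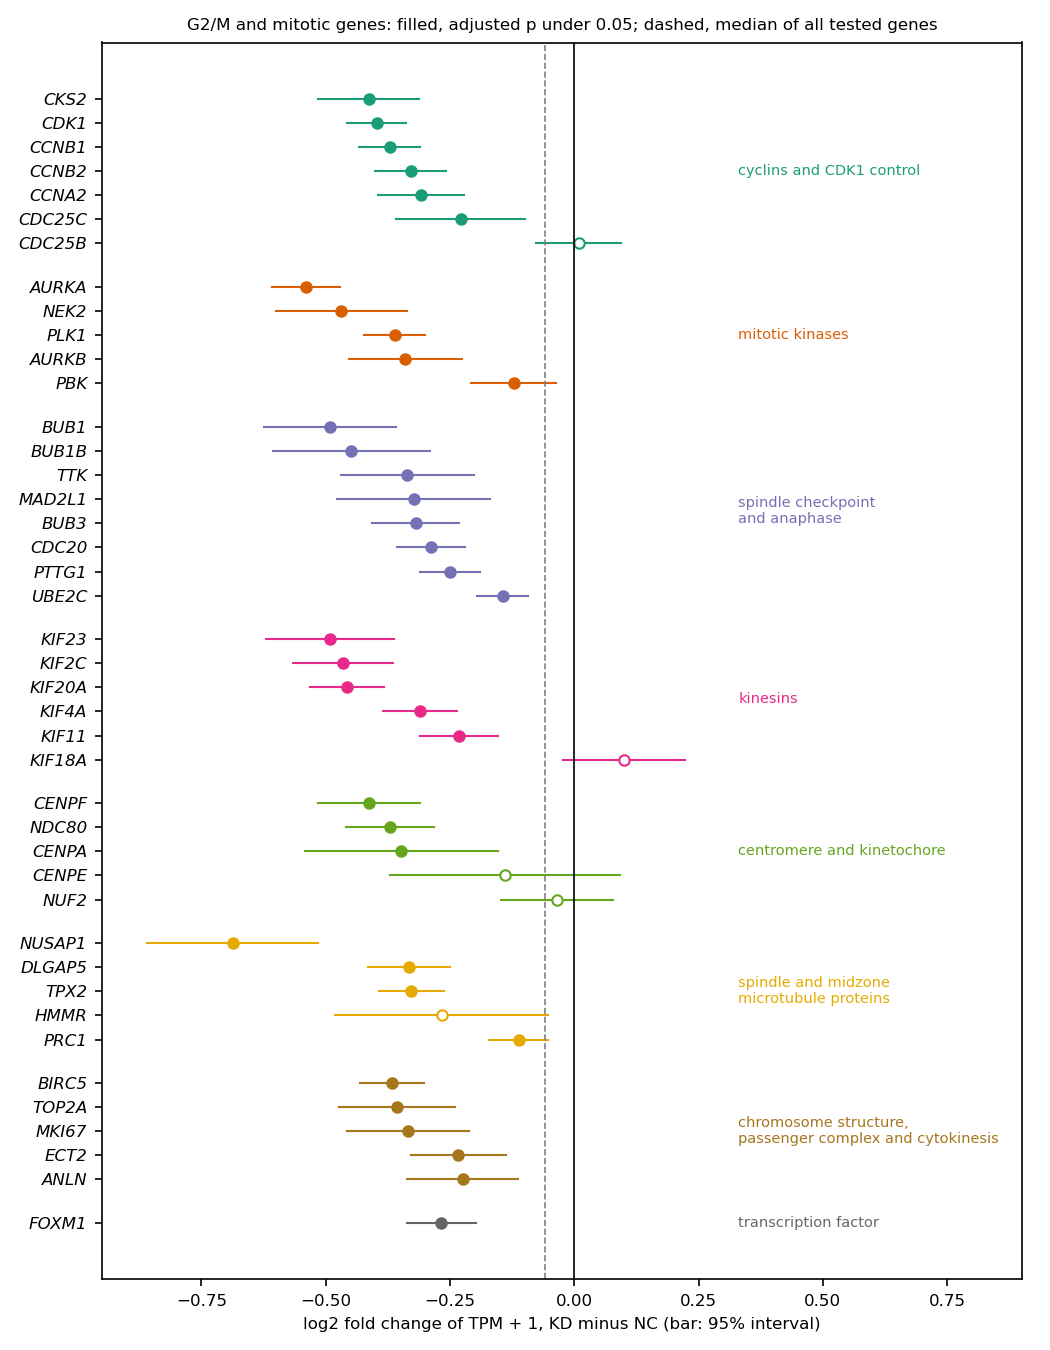
The log2 fold change of TPM + 1 (KD minus NC, horizontal axis) of each of the 42 genes, grouped by role, with its 95% interval from limma (bar); filled points passed the test (adjusted p under 0.05), open points did not, and the dashed line is the median of all genes tested (-0.06). The 37 filled points lie left of that line, between -0.69 (NUSAP1) and -0.11 (PRC1), and only CDC25B and KIF18A lie right of 0.

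All 42 genes are annotated as protein coding. In the group of cyclins and CDK1 control, 6 of 7 genes fell. CKS2, a small protein that binds CDK1 and its substrates, had both the highest level and the largest fall of the group. It was at 567, 601 and 598 TPM in NC1, NC2 and NC3 and at 416, 455 and 455 TPM in KD1, KD2 and KD3, with means of 589 ± 18.8 TPM (SD, n = 3) in NC and 442 ± 22.5 TPM (SD, n = 3) in KD. The KD libraries all lay below the NC libraries, with KD1 the lowest (log2 fold change -0.41, SE 0.0422, adjusted p = 0.000641 by limma). CDK1, the catalytic subunit, was at 139, 139 and 140.5 TPM in the NC libraries and 105, 104 and 108 TPM in the KD libraries. Its NC values spanned 1.73 TPM and the lowest of them lay 30.4 TPM above the highest KD value (log2 fold change -0.40, SE 0.0249, adjusted p = 9.44e-05 by limma). The cyclins followed closely. Cyclin B1 (CCNB1) was at 249.6, 246 and 247 TPM in NC and 194, 195 and 185 TPM in KD, a log2 fold change of -0.37, and cyclin B2 (CCNB2) and cyclin A2 (CCNA2) changed by -0.33 and -0.31.

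The phosphatases that activate CDK1 divided. CDC25C, which acts at entry to mitosis, was at 9.62, 9.92 and 9.43 TPM in NC and 7.72, 8.21 and 8.36 TPM in KD, and fell (log2 fold change -0.23, adjusted p = 0.0181 by limma), a call lost without KD1, NC1 or NC2 (adjusted p from 0.0534 to 0.0623). CDC25B, which acts earlier and at the centrosome, was at 37.1, 38.1 and 39.7 TPM in NC and 38.1, 39.0 and 38.5 TPM in KD. All KD values of CDC25B lay within the NC range, and its log2 fold change was 0.01 (95% interval -0.08 to 0.09, adjusted p = 0.869 by limma). That interval does not reach the median fall of the list.

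The 5 mitotic kinases all fell. PLK1, the polo-like kinase that acts from mitotic entry to cytokinesis, was the most abundant, at 201, 197 and 207 TPM in NC1, NC2 and NC3 and 159.6, 155 and 156 TPM in KD1, KD2 and KD3. Its groups did not overlap (log2 fold change -0.36, SE 0.0254, adjusted p = 0.000149 by limma). AURKA fell most, from 99.9, 98.4 and 103 TPM in NC to 69.5, 69.5 and 67.1 TPM in KD, with means of 100.3 ± 2.15 TPM (SD, n = 3) in NC and 68.7 ± 1.41 TPM (SD, n = 3) in KD. The KD libraries of AURKA spanned 2.48 TPM, and the highest of them lay 28.9 TPM below the lowest NC library (log2 fold change -0.54, SE 0.0288, adjusted p = 5.25e-05 by limma). NEK2, a centrosomal kinase, changed by -0.47 and AURKB, the Aurora kinase of the chromosomal passenger complex, by -0.34. PBK changed least of the kinases, by -0.12, and its adjusted p of 0.0379 by limma was close to the threshold. Without any 1 of KD1, KD3, NC1, NC2 and NC3 the call of PBK was lost (adjusted p from 0.0598 to 0.111 by limma).

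Each of the 8 genes of the spindle checkpoint and of anaphase fell. The kinases BUB1 and BUB1B changed most. BUB1, which recruits other checkpoint proteins to kinetochores, was at 35.2, 32.7 and 35.4 TPM in NC and 23.2, 23.5 and 25.9 TPM in KD (log2 fold change -0.49, SE 0.0549, adjusted p = 0.000923 by limma). BUB1B, the BUBR1 subunit of the inhibitor of the anaphase promoting complex, changed by -0.45, and TTK (the MPS1 kinase), MAD2L1 and BUB3 changed by -0.34, -0.32 and -0.32. The target and partners of that complex changed less in size. CDC20, its mitotic coactivator, was at 203, 198 and 212 TPM in NC and 166, 168 and 167 TPM in KD, where the 3 values were nearly equal, and changed by -0.29. PTTG1, which encodes securin, changed by -0.25. UBE2C, the ubiquitin-conjugating enzyme of the complex and the most abundant gene of the group, was at 537, 519 and 542 TPM in NC and 483, 487 and 476 TPM in KD. The groups of UBE2C did not overlap, but the change was small (log2 fold change -0.14, SE 0.0212, adjusted p = 0.00281 by limma).

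Among the 6 kinesins, motor proteins that move along or dismantle microtubules, 5 fell. KIF23, a motor of the central spindle that works in cytokinesis, had the highest level and the largest change, at 74.0, 71.2 and 76.5 TPM in NC and 56.3, 50.9 and 49.8 TPM in KD. The KD libraries lay well below the NC libraries, with KD1 the highest of them (log2 fold change -0.49, SE 0.0533, adjusted p = 0.000819 by limma). KIF2C, which takes tubulin from microtubule ends, changed by -0.47, KIF20A by -0.46, the chromokinesin KIF4A by -0.31, and KIF11, which pushes the spindle poles apart, by -0.23. KIF18A, which limits chromosome movement at the metaphase plate, was the gene with the highest log2 fold change of the list. It was at 13.8, 15.0 and 13.5 TPM in NC1, NC2 and NC3 and 15.3, 15.0 and 15.3 TPM in KD1, KD2 and KD3. NC1 and NC3 were the lowest of the 6 libraries, while NC2 lay between the KD values, so the groups overlapped (log2 fold change 0.10, 95% interval -0.02 to 0.22, adjusted p = 0.177 by limma). After quantile normalization KIF18A was called higher (log2 fold change 0.18, adjusted p = 0.0453 by limma).

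The centromere and kinetochore group was the most divided, with 3 of 5 genes lower. NDC80, the subunit that gives its name to the microtubule-binding complex of the kinetochore, was at 59.7, 57.5 and 59.2 TPM in NC and 43.9, 47.2 and 44.8 TPM in KD (log2 fold change -0.37, SE 0.0369, adjusted p = 0.000588 by limma). NUF2, which pairs with NDC80 in one rod of that complex, was at 24.3, 25.3 and 24.9 TPM in NC and 24.8, 22.8 and 25.1 TPM in KD. The KD2 library was the lowest of the 6 and the other KD values lay inside the NC range (log2 fold change -0.03, 95% interval -0.15 to 0.08, adjusted p = 0.602 by limma). The ratio of NDC80 to NUF2 transcripts, a pair picked after the values were seen and so given without a test, was 2.46, 2.28 and 2.38 in NC and 1.77, 2.07 and 1.78 in KD. CENPF, a large protein of the outer kinetochore, had the largest change of the group, at 39.2, 41.1 and 39.7 TPM in NC and 28.5, 29.8 and 31.1 TPM in KD (log2 fold change -0.41, adjusted p = 0.000669 by limma). CENPE, a kinetochore motor, was at 8.36, 8.39 and 7.83 TPM in NC and 6.34, 7.45 and 8.36 TPM in KD. KD3 equalled the NC1 value while KD1 was the lowest of the 6, so the KD libraries of CENPE spread more than in any other gene of the list, with a coefficient of variation of 13.7% (log2 fold change -0.14, 95% interval -0.37 to 0.09, adjusted p = 0.309 by limma). CENPA, the centromeric histone H3 variant, changed by -0.35 (adjusted p = 0.0168 by limma).

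Of the 5 spindle and midzone microtubule proteins 4 fell, and the group held the largest change of the list. NUSAP1, a gene of chromosome 15 (GRCh38, plus strand, chr15:41332694-41381050), was at 118, 103 and 105 TPM in NC and 67.5, 72.0 and 61.6 TPM in KD, with means of 109 ± 7.90 TPM (SD, n = 3) in NC and 67.0 ± 5.18 TPM (SD, n = 3) in KD. The highest KD value of NUSAP1 was 31.4 TPM below the lowest NC value, a gap larger than the span of either group (14.2 TPM in NC and 10.3 TPM in KD) (log2 fold change -0.69, 95% interval -0.86 to -0.51, adjusted p = 0.000701 by limma). TPX2, which activates Aurora A on the spindle, and DLGAP5, which stabilizes kinetochore fibres, each changed by -0.33. PRC1, the bundler of midzone microtubules, had the highest level of the group, at 135, 129.8 and 131 TPM in NC and 121, 124 and 121 TPM in KD, and among the genes that passed it changed least (log2 fold change -0.11, SE 0.0247, adjusted p = 0.0142 by limma). HMMR, a microtubule-binding protein of the spindle poles, was at 32.9, 36.9 and 34.0 TPM in NC and 26.9, 26.3 and 32.7 TPM in KD. KD3 came within 0.15 TPM of NC1, and although the groups did not overlap HMMR missed the threshold (log2 fold change -0.27, 95% interval -0.48 to -0.05, adjusted p = 0.0588 by limma). Without KD3 it was called lower (log2 fold change -0.36, adjusted p = 0.00855 by limma).

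The 5 genes of chromosome structure, the passenger complex and cytokinesis all fell. BIRC5, which encodes survivin of the chromosomal passenger complex, had the highest level and the largest change, at 103, 104 and 102 TPM in NC and 79.5, 77.8 and 81.5 TPM in KD (log2 fold change -0.37, SE 0.0265, adjusted p = 0.000166 by limma). TOP2A, the topoisomerase that untangles sister chromatids, changed by -0.36, and MKI67, the Ki-67 protein that coats mitotic chromosomes and serves as a proliferation marker, by -0.33. The cytokinesis genes ECT2 and ANLN changed by -0.23 and -0.22. FOXM1, the transcription factor of the list, was at 92.6, 90.0 and 94.0 TPM in NC and 77.9, 76.5 and 74.9 TPM in KD. The groups of FOXM1 stood apart by 12.1 TPM (log2 fold change -0.27, SE 0.0287, adjusted p = 0.000783 by limma).

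**Figure D2:**
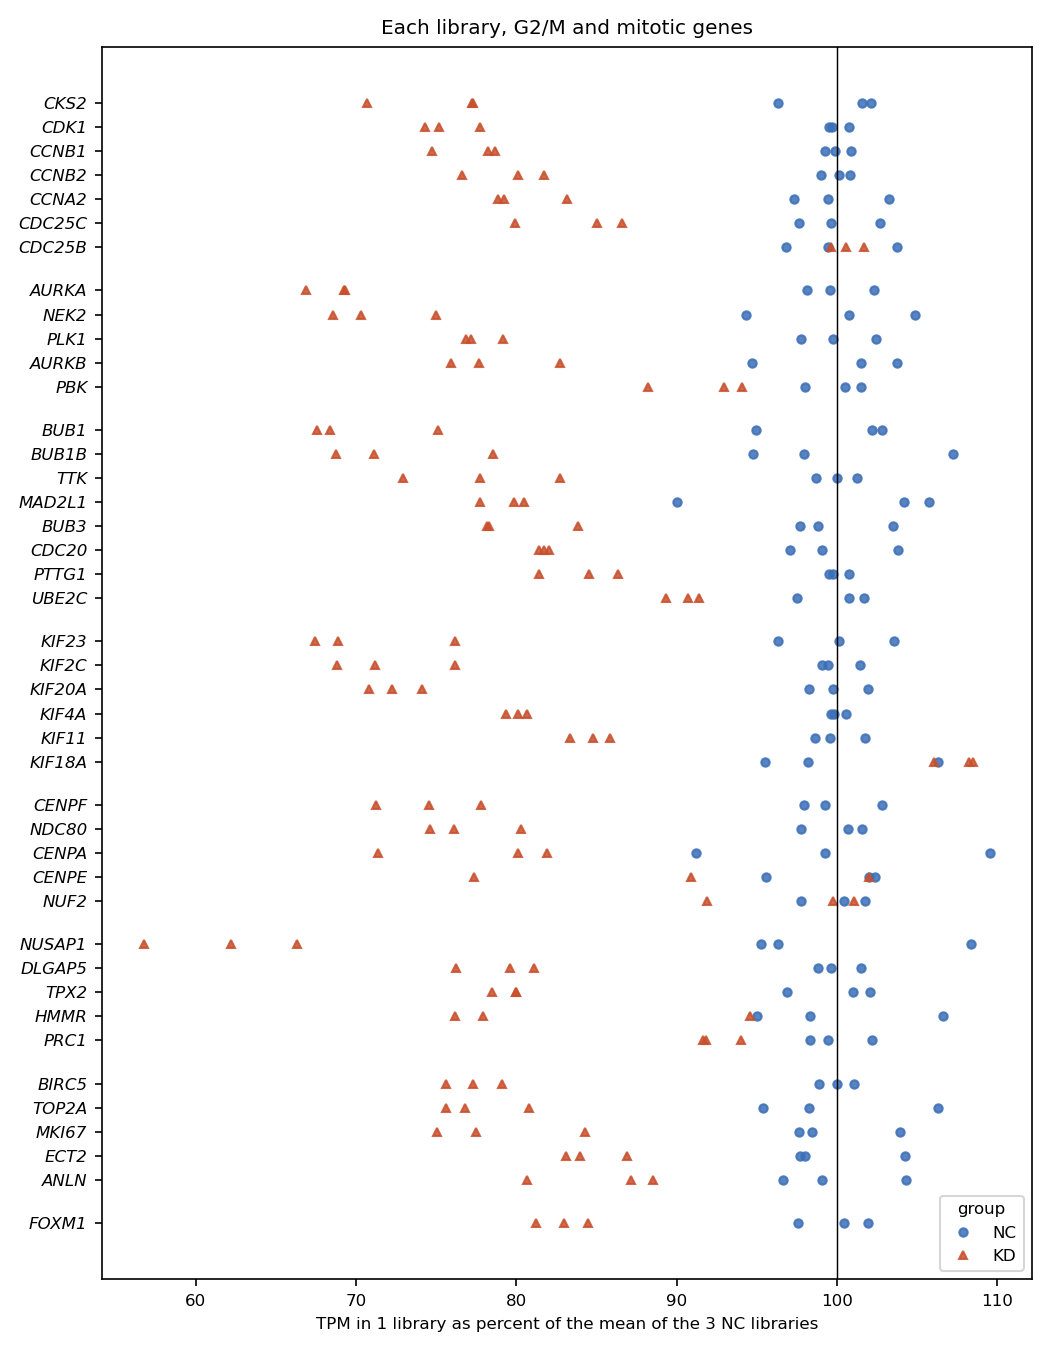
TPM of each of the 42 genes in each library as a percent of the mean of the 3 NC libraries (horizontal axis; circles NC, triangles KD), in the same order of roles. The NC points cluster around 100% and most KD triangles lie between about 65% and 95%; the triangles of CDC25B, KIF18A, CENPE and NUF2 reach into the NC points.

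The libraries of a group were close to each other. Over the 42 genes the median coefficient of variation was 2.66% between NC libraries and 3.33% between KD libraries, against a median KD level of 79.2% of NC. The 42 genes summed to 4587, 4558 and 4656 TPM in NC1, NC2 and NC3 and to 3659, 3745 and 3668 TPM in KD1, KD2 and KD3, so KD held 80.2% of the NC sum. No KD library carried the difference alone: without KD1, KD2 or KD3, limma called 35, 37 and 37 of the 42 genes lower. The shares over all genes tested were 20%, 19.9% and 19.7%. Ranked only among themselves, KD3 was the lowest of the 3 KD libraries in 19 genes, KD1 in 14 and KD2 in 9. The size of the change showed little relation to the level of the gene (Pearson r -0.20 and Spearman rho -0.17 across the 42 genes, which share the same 6 libraries; a description only).

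**Figure D3:**
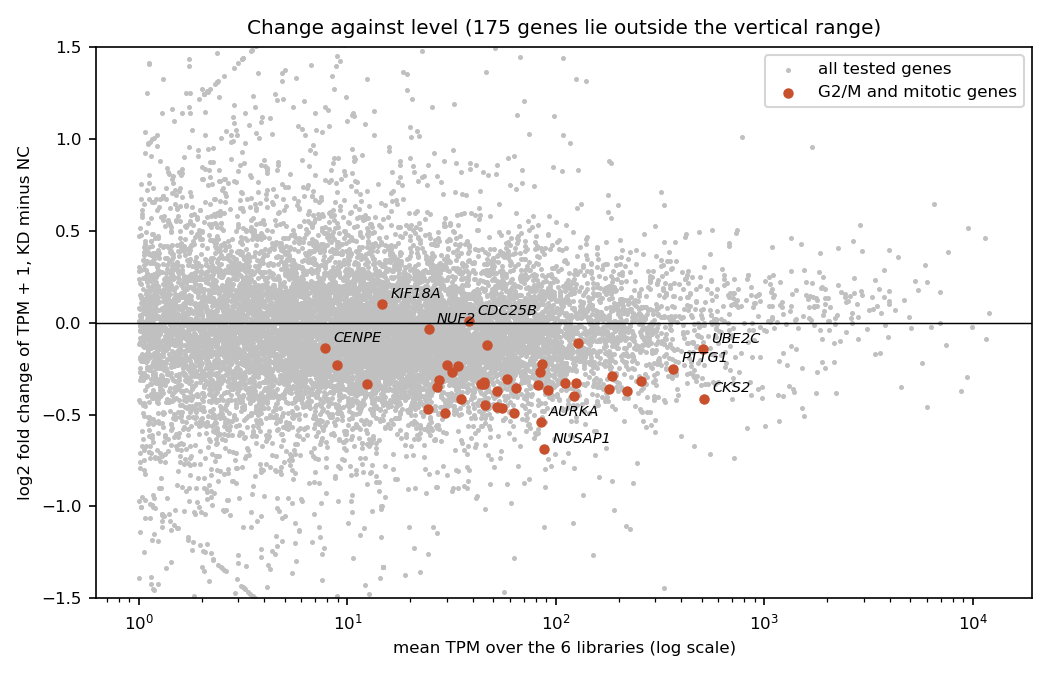
The log2 fold change (vertical axis) against the mean TPM over the 6 libraries (horizontal axis, log scale) for all 13722 genes tested (grey) and the 42 G2/M and mitotic genes (red); 175 genes lie outside the vertical range of 1.5 either way. The red points fill a band below 0 across the range from 7.79 to 515 TPM, within the spread of the grey points, and only CDC25B and KIF18A lie above 0.

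A further list of 86 mitotic genes outside the 42, from the centromere, condensin, the spindle, cytokinesis and mitotic entry, moved less evenly. All 86 were tested, 58 were lower (67.4%), 6 were higher (6.98%) and 22 did not pass, beside 24.0% lower and 12.1% higher of all genes. The median log2 fold change was -0.25. CKAP2L, a spindle protein, was at 24.1, 25.6 and 25.4 TPM in NC and 14.7, 16.8 and 14.7 TPM in KD, and SMC2, a core subunit of condensin, at 17.1, 17.5 and 17.6 and 10.8, 11.1 and 10.7 TPM, with log2 fold changes of -0.67 and -0.64, the largest of that list. Among its subgroups, 12 of 13 spindle genes and 6 of 8 condensin genes were lower, whereas of 24 centromere and kinetochore genes 12 were lower, 2 higher and 10 did not pass. The 6 genes that rose were named after their values were seen. WEE1, the kinase that places the inhibitory phosphate on CDK1, was at 9.17, 9.73 and 8.79 TPM in NC and 11.5, 10.4 and 12.5 TPM in KD (log2 fold change 0.29, adjusted p = 0.0279 by limma). ENSA, an inhibitor of the phosphatase that acts on the substrates of CDK1, was at 161, 164 and 164 and 185, 191 and 185 TPM (log2 fold change 0.20). The lamin LMNB1, the chromatin protein HMGB2 and the kinetochore genes CENPH and SKA2 rose by 0.35, 0.19, 0.31 and 0.16 on the log2 scale. The KD libraries of these 6 genes all lay above their NC libraries, yet the calls of WEE1 (without KD1, KD3, NC1 or NC3) and CENPH (without NC1 or NC3) were lost with 1 library left out, at adjusted p-values by limma from 0.0629 to 0.0846. PKMYT1, ARPP19 and LMNB2, relatives of WEE1, ENSA and LMNB1, were among the genes of that list called lower (log2 fold changes -0.20, -0.18 and -0.35).

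The anaphase promoting complex itself, the ubiquitin ligase on which CDC20, UBE2C and PTTG1 converge, was examined next, and the shares of its subunits were near those of all genes. Of 17 genes tested 6 were lower (35.3%) and 2 higher (11.8%), with a median of -0.09. With median-of-ratios scaling 4 were higher, while among all genes called the share lower went from 66.5% to 49.3%. Among its 14 subunits 3 were lower (21.4%) and 2 higher (14.3%), beside 24.0% and 12.1% of all genes. Its G1 coactivator FZR1, the ubiquitin-conjugating enzyme UBE2S and the inhibitor FBXO5 all fell. FZR1 changed most, from 47.5, 46.8 and 51.4 TPM in NC to 34.0, 31.7 and 35.3 TPM in KD (log2 fold change -0.52, adjusted p = 0.000707 by limma). The subunits that rose were ANAPC15, at 67.3, 63.7 and 64.4 TPM in NC and 84.3, 79.2 and 79.1 TPM in KD (log2 fold change 0.31), and ANAPC11, the RING subunit, with a log2 fold change of 0.14.

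Genes of the G1/S transition and of DNA replication, which are expressed earlier in the cycle, gave a different count. Of 45 tested, 17 were lower (37.8%), 2 were higher (4.44%) and 26 did not pass, beside 24.0% lower and 12.1% higher of all genes. The median was -0.14, beside -0.06 over all genes. MCM3, a subunit of the replicative helicase, was at 192, 192 and 190.1 TPM in NC and 115, 115 and 117 TPM in KD (log2 fold change -0.72, adjusted p = 4.37e-06 by limma), beside -0.69 for NUSAP1, and CHAF1A, of the chromatin assembly factor, changed by -0.56. Among the genes that rose was MCM6, another subunit of the same helicase, at 51.0, 53.9 and 55.5 TPM in NC and 67.4, 68.7 and 66.9 TPM in KD (log2 fold change 0.33). The summed TPM of this list was 3125, 3120 and 3162 in NC and 2831, 2831 and 2827 in KD, which was 90.2% of NC, and the ratio of the mitotic sum to it was 1.47, 1.46 and 1.47 in NC and 1.29, 1.32 and 1.30 in KD. The lists were compared by these counts, medians and sums alone, and no test of the difference between them was made. Replication-dependent histones, whose transcripts mostly lack a poly(A) tail, summed to 171 to 186 TPM in NC and 152 to 176 TPM in KD. Of 13 histones tested 3 were lower (23.1%) and 1 higher (7.69%), beside 24.0% and 12.1% of all genes.

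**Figure D4:**
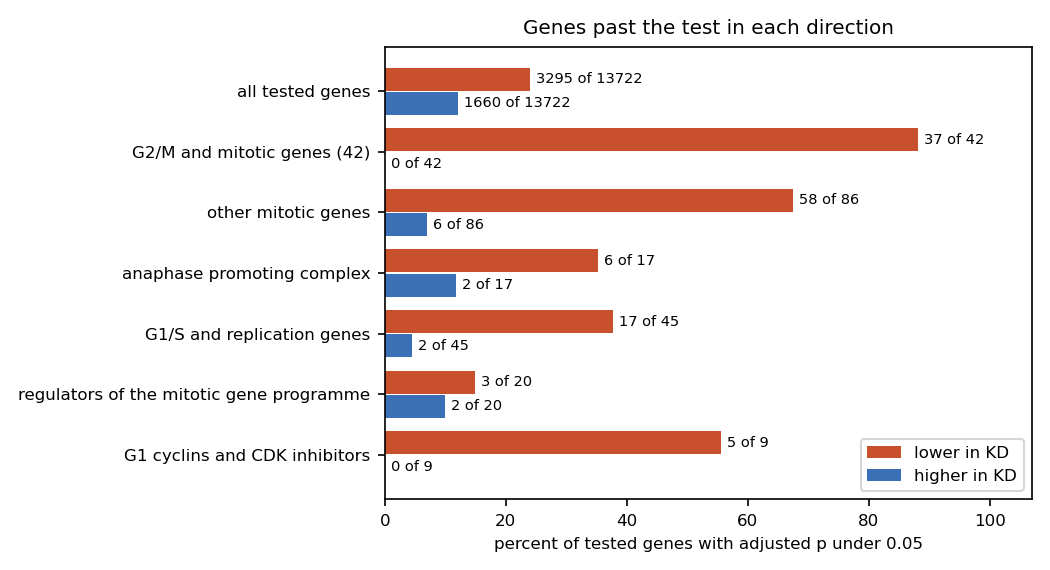
Percent of the tested genes of each list that passed the test (adjusted p under 0.05, limma) as lower (red) or higher (blue) in KD, with the counts printed beside the bars; the axis starts at 0. The bar for the 42 G2/M and mitotic genes (37 of 42 lower, 0 higher) is the longest, followed by the further mitotic genes (58 of 86 lower), and the top pair of bars gives all 13722 genes tested.

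The regulators of the mitotic programme mostly did not pass the test, and nor did 8767 of all 13722 genes tested. Of 21 listed genes 20 were tested, 3 were lower (15%), 2 were higher (10%) and 15 did not pass. The shares over all genes tested were 24.0% lower and 12.1% higher. The median log2 fold change of the regulators was -0.07, beside -0.06 over all genes. MYBL2, which encodes B-MYB, was at 138, 134 and 143 TPM in NC and 130.0, 131 and 129 TPM in KD (log2 fold change -0.09, adjusted p = 0.0615 by limma). LIN52, a subunit of the MuvB core, was lower, at 10.7, 10.1 and 10.9 TPM in NC and 7.27, 6.86 and 7.55 TPM in KD (log2 fold change -0.49), as were E2F3 (-0.28) and the NF-Y subunit NFYC (-0.20). MYBL1, a relative of MYBL2 at a low level, was at 5.47, 5.24 and 4.76 TPM in NC and 6.80, 6.02 and 7.05 TPM in KD and rose by 0.31, and TFDP1, the dimer partner of the E2F factors, by 0.12, both on the log2 scale. The calls of these 2 genes were weak, with adjusted p-values of 0.0283 and 0.0209 by limma. With any 1 library left out only 1 of them was called, and 0 without NC3, and the call of E2F3 was lost without NC1 or NC2 (adjusted p of 0.0591 and 0.0508 by limma).

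Of 14 G1 cyclins, their kinases and CDK inhibitors 9 were tested, and 5 were lower and 0 higher by limma (also 5 and 0 at an unadjusted p under 0.05). The share lower was 55.6%, beside 24.0% of all genes tested. Cyclin D1 (CCND1), which responds to growth factor signals, was at 311, 309.6 and 312 TPM in NC and 216, 217 and 212 TPM in KD (log2 fold change -0.53, adjusted p = 8.18e-06 by limma). CDKN1A, the p21 inhibitor that p53 induces and that holds mitotic genes down through DREAM, was at 316, 323 and 325 TPM in NC and 216, 221 and 213 TPM in KD (log2 fold change -0.57, adjusted p = 1.51e-05 by limma). The highest KD value of CDKN1A lay 95.3 TPM below its lowest NC value. Whether CDKN1A had a part in the changes of the mitotic genes was not tested. CDK2, CCND3 and CDK4 changed by -0.38, -0.19 and -0.17. CDKN2A, CDKN2B and CDKN2C were listed at 0 in all 6 libraries.

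Promoter motifs were counted in the RefSeq promoters (250 bases before to 50 after the start, both strands) as a description. A promoter was listed for 34 of the 42 genes, 44 promoters in all, and AURKA, PBK, TTK, BUB3, UBE2C, TPX2, BIRC5 and FOXM1 had no entry. A CHR stood in 77.3% of the promoters of the list, beside 24.0% of all promoters, and a CCAAT box in 75.0%, beside 34.6%. Both a CHR and at least 2 CCAAT boxes stood in 38.6%, beside 2.73% of all promoters. The E2F site (TTTGGCGC, TTTCCCGC, TTTGCCGC or TTTCGCGC) was found in 9.09%, which is 4 promoters of 3 genes, beside 3.31%. Over the promoters of genes tested the shares were 17.3% (CHR), 34.9% (CCAAT box), 2.36% (CHR and at least 2 CCAAT boxes) and 5.09% (E2F site). Counted by gene, 8.82% of the list with a promoter had an E2F site, beside 6.95% of genes tested with a promoter. The G1/S list had a different make-up, with an E2F site in 43.6% and a CHR in 18.2% of its promoters, and the further mitotic genes lay between, with a CHR in 59.0%. In 20 of the 34 genes with a promoter a CHR began 1 to 50 bases upstream of the start, and in 10 genes adjacent CCAAT boxes began 25 to 40 bases apart.

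**Figure D5:**
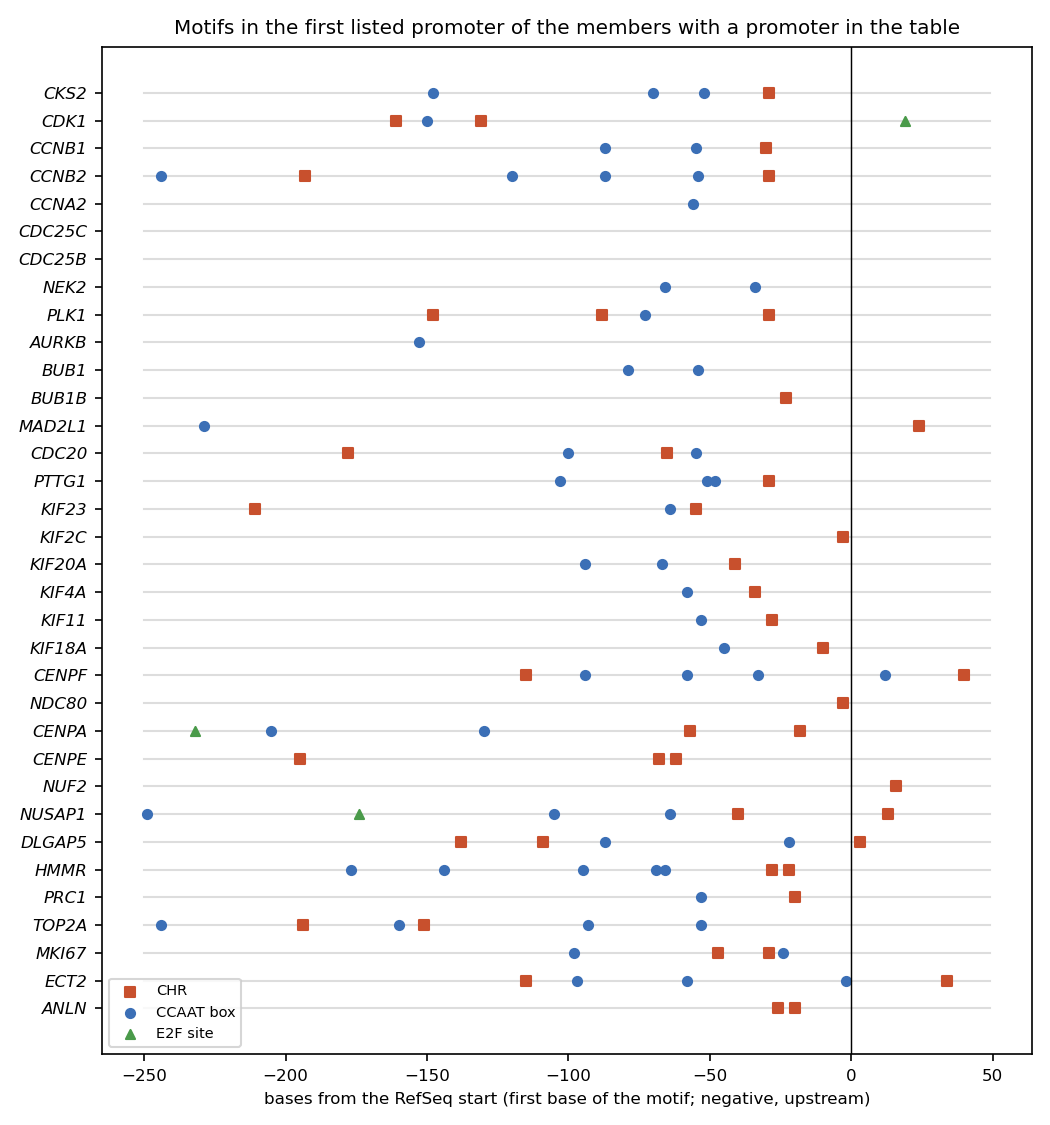
Position of the first base of each CHR (squares), CCAAT box (circles) and E2F site (triangles) relative to the RefSeq start (horizontal axis, in bases; negative is upstream) in the first listed promoter of the 34 genes with an entry. Many CHRs lie within the 50 bases before the start, with CCAAT boxes further upstream, and CDC25C and CDC25B show no motif in the promoter drawn.

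The changes were then set beside the motifs. Of the 30 genes with a CHR 25 were lower, with a median log2 fold change of -0.33, and all 4 genes without one (CCNA2, AURKB, NEK2 and BUB1) were lower, with a median of -0.40. KIF18A, which was not lower, has a CHR 10 bases and a CCAAT box 45 bases upstream of its start. Outside the lists, 2002 tested genes had a CHR in a promoter, of which 26.3% were lower, with a median of -0.06, and 271 had both a CHR and at least 2 CCAAT boxes. Of the 271, 31.7% were lower and 10.7% higher, with a median of -0.11, beside 25.2% lower and a median of -0.06 for the 9682 tested genes on no list with a promoter.

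TPM is a share, so scaling sets where 0 lies. With median-of-ratios scaling 34 of the 42 genes were lower, beside 16.4% of all genes tested, and with quantile normalization 35, beside 16.2%, while the share of lower among all calls went from 66.5% to 49.3% and 50%, respectively. PBK and PRC1 were not called under either scaling, nor CDC25C under the former. The 13 mitochondrially encoded messenger RNAs, of which 11 were lower and 0 higher (also 11 and 0 at an unadjusted p under 0.05, limma), summed to 51374, 52356 and 52897 TPM in NC and 46964, 42413 and 42606 TPM in KD, and with them left out 38 of the 42 genes were lower, beside 25.3% of all genes. Of near-identical copies that could share reads, PTTG2, PTTG3P, CDC20P1 and BUB3P1 were listed at 0 and KIF4B at 0.15 to 0.28 TPM, beside 24.2 TPM or more for KIF4A.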

How the data were processed

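RNA of 3 NC and 3 KD libraries of U87-MG cells was sequenced from both ends. In the table that the authors deposited, each value is a TPM with 2 decimals, and 190 of the 61731 entries are loci named MSTRG. The submitters' processing notes name fastp, RSEM and GRCh38.p13. Their versions and the annotation are not given in the sources used here. The labels name a different library kit and RNA kit from those in the published methods. Of 61541 Ensembl identifiers 61369 had a symbol. The columns were matched to samples by name, and 0 were left over. TPM keeps no depth, so no count test and no counting interval was used.

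From these values, log2(TPM + 1) was analysed with limma 3.58.1 (R 4.3.3; lmFit, eBayes with trend, group as the only term) where the mean over the 6 libraries reached 1 TPM (13722 genes, all 42 members among them), and p-values were adjusted by Benjamini-Hochberg over all of them. A call was an adjusted p under 0.05. CHRM3 was compared by an exact permutation test. Fold changes on this scale understate the change of low genes. On data simulated for this comparison with 13722 genes, 34% of 100 genes changed by 0.3 and 82% of 100 changed by 1 on the log2 scale were recovered, with 5 false calls. No other gene was changed in the simulation, while 24.0% of genes were called lower and 12.1% higher in the data. The adjustment for multiple tests was therefore stricter in the simulation, and its recovery does not give the power in these data. Motifs were searched in the RefSeq promoter table (GRCh38.p14), and gene coordinates are from GENCODE 29. The named genes were, in each role group, the one with the highest level, the one with the largest change and each that did not pass, and, of other lists, the 2 with the largest change and each gene of a count of 5 or fewer, except that some items are not reported here. The members and lists were chosen with earlier results of these data known. Alternatives varied the pseudocount, the limit on low values, the scaling, the mean-variance trend, the replicate block, the fold limit and each library left out in turn.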

Additional observations from a re-analysis of the deposited data

How the results depend on the processing

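The number of the 42 genes that were lower stayed between 34 and 38 under every alternative run. Leaving out 1 library gave 35 to 37, while 18.4% to 20% of all genes tested were lower. The median log2 fold change of the list, -0.33, was -0.26 with median-of-ratios scaling and -0.25 with quantile normalization, and ranged from -0.34 to -0.32 with 1 library left out. Quantile normalization called 1 of the 42 genes higher (KIF18A) and 11 of the G1/S list lower in place of 17. The share lower of all genes tested went from 24.0% to 16.2% with it. Median-of-ratios scaling called 4 genes of the anaphase promoting complex higher in place of 2. Among all genes called, the share lower went from 66.5% to 49.3% with that scaling. A log2 limit of 0.5 in place of 1 gave 2 of the 42 genes, beside 5% of all genes tested. Of the regulators, 2 were higher, but 1 was with no limit on low values, 1 without the trend, 0 with the replicate block and 0 to 1 with 1 library left out. The sign of 2 genes that did not pass turned. NUF2 was at 0.0325 with median-of-ratios scaling and 0.0376 with quantile normalization, and CDC25B at -0.00309 without the mitochondrial genes. With 1 library left out NUF2 ranged from -0.0598 (without KD3) to 0.00592 (without KD2) and CDC25B from -0.0133 (without NC1) to 0.0354 (without NC3). The cause was not tested. The replicate numbers did not pair the libraries: deviations of same-numbered libraries correlated at -0.02, 0.03 and 0.03. With the replicate block 34 of the 42 genes were lower (without CDC25C, PBK and PRC1), beside 19.2% of all genes. Over the single genes named and all alternatives, 1021 values kept direction and side of the threshold, 42 lost the call, 4 gained one and 5 changed sign. The unknown depth limits what can be said of CHRM3 and other genes near 0.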
